A study of Homo sapiens with 6 samples.

Results

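TRIM genes encode a large family of ubiquitin ligases, and they were compared here between SNU-449 cells labelled as overexpressing USP48 and SNU-449 cells carrying an empty vector. A member was any gene whose symbol is TRIM followed only by a number and that had at least 1 probe set naming it alone. The rule gave 55 genes, read by 128 probe sets, of 19775 genes measured. Each gene was represented by its brightest probe set, the one with the highest mean over all arrays.

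SNU-449 is an established human hepatocellular carcinoma line. By their labels, the 3 control arrays are of cells with the empty vector (genotype Ctrl), and the other 3 arrays are of cells that received a USP48 lentivirus and were selected with puromycin (genotype USP48 OE). USP48 is a deubiquitinating enzyme. The sample titles call the cells of both groups transfected, with vector or with USP48. The viral treatment is described for the USP48 cells only. The labels say neither how many clones were kept nor whether the replicates are separate cultures. The p-values therefore measure only the spread between these arrays, which may be technical. In bulk RNA a change in every cell and a change in some of the cells cannot be told apart.

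TRIM proteins share an N-terminal RING finger, which recruits a ubiquitin-loaded E2 enzyme, followed by B-box zinc fingers and a coiled coil through which they pair. The C-terminal end differs between classes and usually picks the target. A SPRY domain binds viral or host proteins, a PHD finger with a bromodomain reads histone tails, and NHL repeats bind RNA or proteins. Several TRIM genes are induced by interferon and act in antiviral defence, either by binding viral components or by tuning the RNA and DNA sensing pathways.

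USP48 itself was not called higher by any of its 5 probe sets, and 2 of them were called lower (log2 differences of −0.63 and −0.82, limma adjusted p = 0.00085 and 0.00013 over all probe sets), so the groups are named by their labels throughout. The medians of the arrays lay between 3.74 and 3.79 on the log2 scale. Of 9 hepatocyte markers measured, 5 lay below the median of every array in both groups, including ALB at 2.07 ± 0.18 and 2.14 ± 0.07 (SD, n = 3 each). CYP3A4 (means of 5.84 and 5.85), TTR (5.11 and 5.31) and TF (4.30 and 4.33) lay above every array median in both groups. Of 4 epithelial markers EPCAM and CDH1 were called lower, at log2 differences of −0.42 and −0.38 (limma adjusted p = 0.0092 and 0.017), with CDH1 below every array median, and the keratins KRT8 and KRT18 did not pass, at −0.31 and 0.01. All 3 mesenchymal markers were called, FN1 higher at 1.48 and VIM and CDH2 lower at −0.42 and −0.65 (adjusted p = 0.00073, 0.0071 and 0.0011). The part of these markers in the TRIM values was not tested. Of 10 leukocyte markers, 6 lay below the median of every array in both groups, among them PTPRC, and CD2 was called at a log2 difference of 0.29. The means of CD3E, CD3D and ITGAM lay above every array median in both groups. The 18 hybridization control probe sets, which read RNAs added before hybridization, averaged 9.79 ± 0.04 and 10.09 ± 0.10 (SD, n = 3 each). Differences are therefore also given on values scaled to these controls, called control-scaled here, which lowers each log2 difference by 0.29. The 5′ minus 3′ difference of the GAPDH control probe sets, which falls as RNA degrades, was −1.31 in USP48 replicate 3 and between −0.51 and −0.32 in the other arrays.

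Of the 55 TRIM genes, 12 rose and 9 fell in the USP48-labelled arrays, and 34 did not pass the test (limma, Benjamini-Hochberg over all genes, adjusted p under 0.05). Over all genes 29.8% were called, 15.7% higher and 14.1% lower, against 21.8% higher and 16.4% lower among TRIM genes. Either way 38.2% of the family was called. Its median log2 difference was 0.04, beside 0.05 over all genes. At least 2-fold rises were called for 5 TRIM genes and 1.83% of all genes, and at least 2-fold falls for 0 TRIM genes and 1.91% of all genes. On the control-scaled values the split was 7 higher and 22 lower, with medians of all genes and of TRIM genes outside the interferon list of −0.24 and −0.25. Members whose difference lay between 0 and 0.29 changed sign under that scaling.

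**Figure D1:**
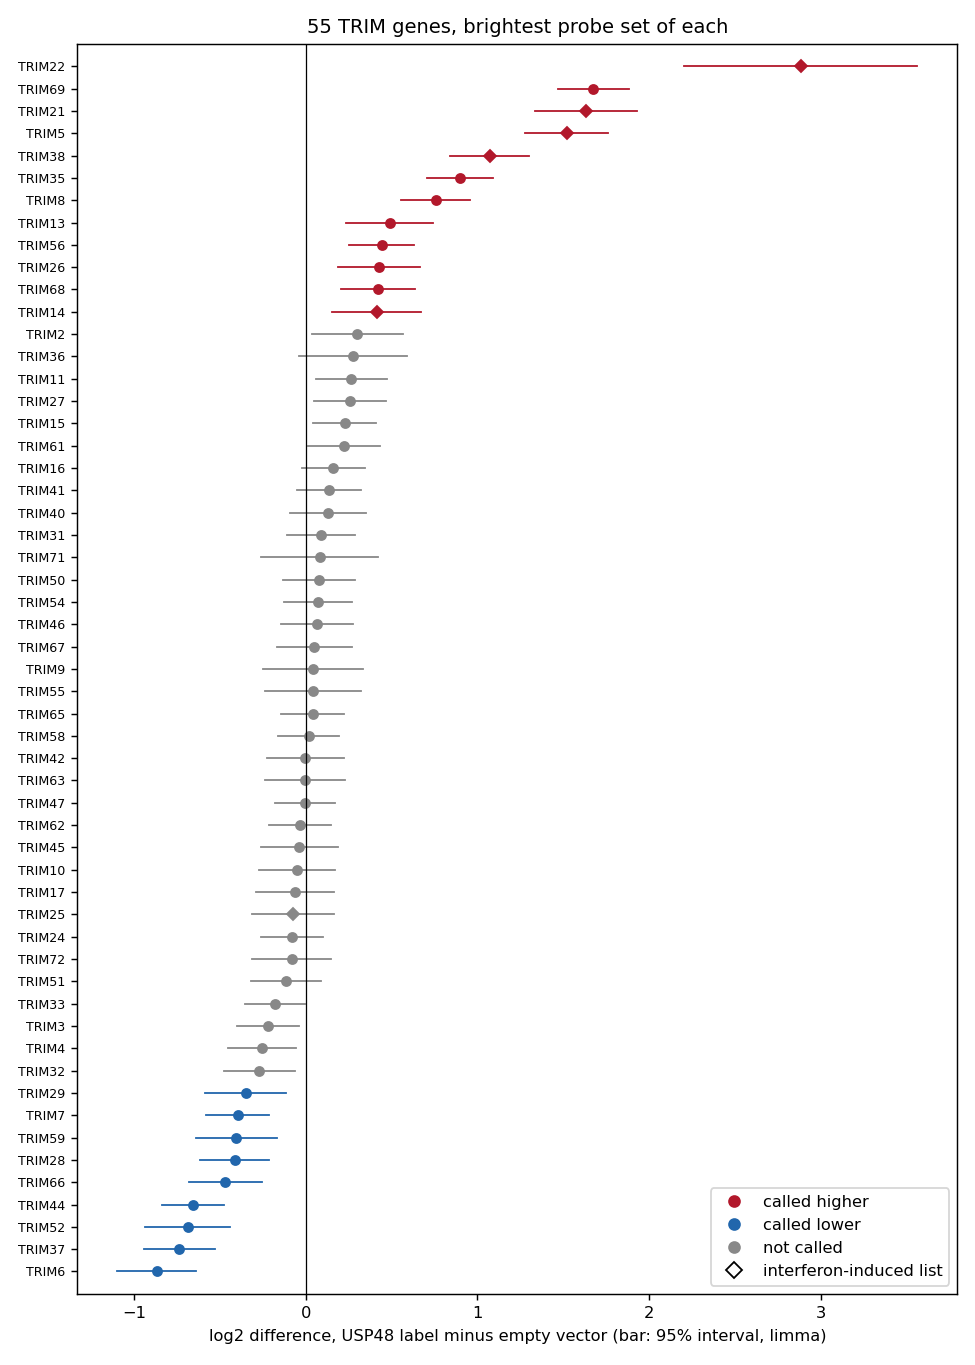
Log2 difference of each of the 55 TRIM genes (x axis, USP48-labelled minus empty vector arrays, n = 3 each), with bars for the 95% interval from limma and colour for the call at an adjusted p under 0.05. TRIM22 at 2.88 lies apart at the top, TRIM6 at −0.87 is lowest, and of the 6 measured interferon-induced members (diamonds) only TRIM25 lies at about 0.

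The interferon-induced members were TRIM5, TRIM14, TRIM21, TRIM22, TRIM25, TRIM34 and TRIM38, a list of textbook interferon responses that was drawn up with earlier results of these data known. TRIM34 had no probe set of its own, since both of those that name it also name the TRIM6-TRIM34 readthrough, and is not analysed here. Of the 6 measured, 5 rose and 0 fell, with a median log2 difference of 1.30. Among the 49 other TRIM genes 7 rose (14.3%) and 9 fell (18.4%), with a median of 0.04. Over all genes the shares were 15.7% higher and 14.1% lower, near those of the 49. At least 2-fold rises were called for 4 of the 6 and for 1 of the 49, beside 1.83% of all genes. On the control-scaled values 4 of the 6 were called higher and 1 lower, with a median of 1.0. These counts are descriptions, and no test was made over the members.

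TRIM22, a SPRY-class factor that restricts retroviruses and influenza virus, had the largest difference of the family. Its values were 2.95, 2.85 and 2.55 in the empty vector arrays and 5.81, 6.39 and 4.80 in the USP48-labelled arrays. The groups lay far apart, and the USP48-labelled arrays spread most in this gene, with replicate 3 lowest. The log2 difference was 2.88 (SE 0.31, limma adjusted p = 5.5e-05), and 3.32 without USP48 replicate 3. The empty vector mean of 2.78 lay below the median of every array, so the difference is one of dim against measured signal and no fold is given.

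TRIM21, the cytosolic antibody receptor that sends antibody-coated viruses to the proteasome, was at 6.14, 6.24 and 6.14 in the empty vector arrays. In the USP48-labelled arrays it was at 7.90, 8.05 and 7.47. All USP48-labelled arrays were above all controls, by a log2 difference of 1.63 (3.11-fold, SE 0.13, limma adjusted p = 1.0e-05).

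TRIM5, which recognises the capsid lattice of retroviruses, was at 6.23, 5.99 and 6.16 and rose to 7.77, 7.72 and 7.44. Replicate 3 was again the lowest USP48-labelled array, without reaching the controls. The log2 difference was 1.52 (2.87-fold, SE 0.11, limma adjusted p = 4.7e-06), and its other probe set was at 1.18.

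TRIM38, a modulator of Toll-like receptor and RNA sensor signalling, was at 7.64, 7.76 and 7.62 in controls and 8.73, 8.93 and 8.57 in the USP48-labelled arrays. The groups did not overlap, and the log2 difference was 1.07 (2.10-fold, SE 0.10, limma adjusted p = 3.2e-05). Of its 4 probe sets, 3 were called higher, at 1.07, 0.42 and 1.60, and the fourth was at −0.07.

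TRIM14 lacks a RING finger and serves as an adaptor of the mitochondrial antiviral protein MAVS. It was at 7.61, 7.45 and 7.63 in controls and 8.14, 7.72 and 8.06 in the USP48-labelled arrays, where replicate 2 came close to the controls. Its log2 difference of 0.41 passed the test (SE 0.12, limma adjusted p = 0.021), but less firmly than the others. The call was lost on the control-scaled values (0.12, adjusted p = 0.46), when its 5 probe sets were averaged (0.17, adjusted p = 0.12), and when empty vector replicate 2, USP48 replicate 1 or USP48 replicate 3 was left out (adjusted p = 0.090, 0.085 and 0.065).

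TRIM25, the ligase that ubiquitinates the RNA sensor RIG-I and also attaches ISG15, gave opposing answers by probe set. The brightest, 224806_at, was at 8.16, 8.38 and 8.26 in controls and 8.02, 8.38 and 8.18 in the USP48-labelled arrays. The groups overlapped, with a log2 difference of −0.07 and a 95% interval from −0.31 to 0.16. Probe set 206911_at was at 5.46, 5.60 and 5.31 in controls and 7.17, 7.35 and 7.11 in the USP48-labelled arrays. That is a log2 difference of 1.76 (3.38-fold, SE 0.11, limma adjusted p = 2.5e-06 over all probe sets). With the mean of both probe sets TRIM25 was called higher at 0.84 (adjusted p = 0.00013), and on the control-scaled values the brightest was called lower at −0.37 (adjusted p = 0.028). Without USP48 replicate 1 the difference was 0.01 (adjusted p = 0.96). Which transcripts each probe set reads was not analysed here.

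**Figure D2:**
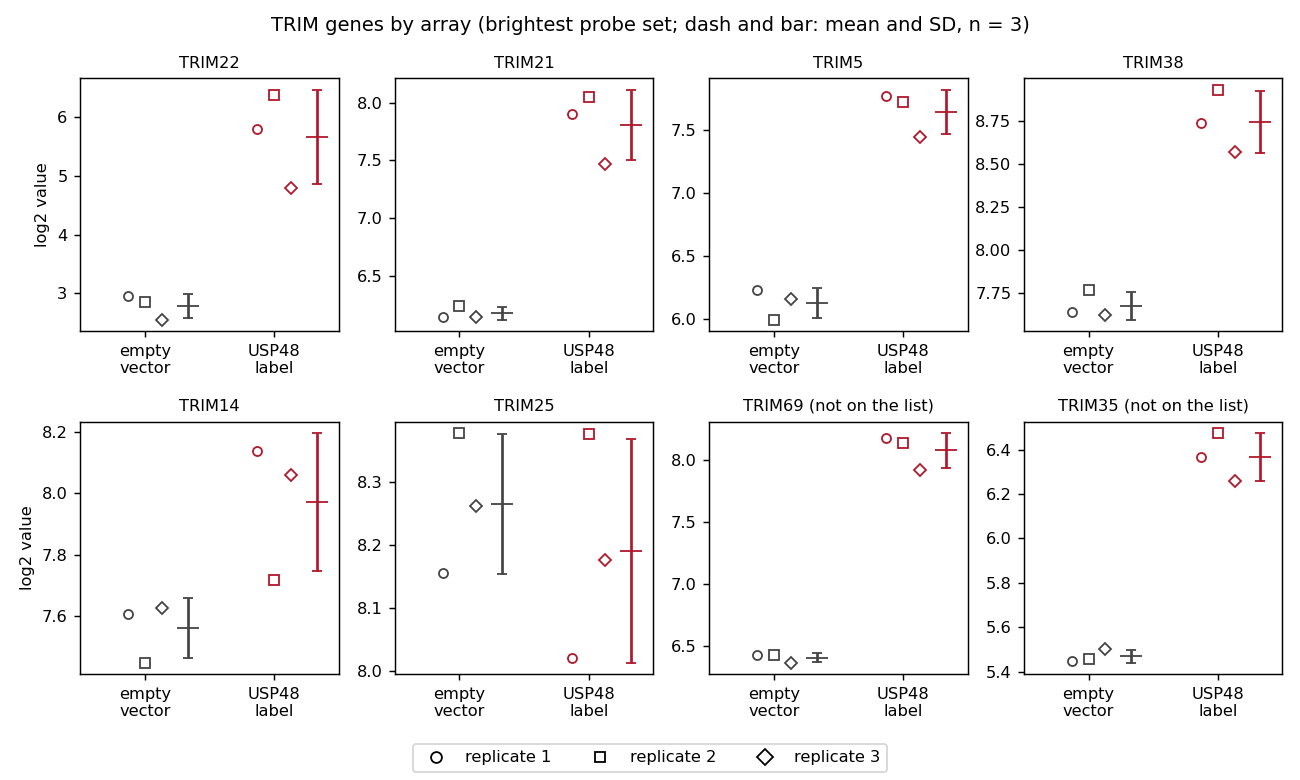
Log2 value (y axis, a separate scale in each panel) of 8 TRIM genes in each array, with open symbols for replicates and a dash and bar for the mean and SD (n = 3). USP48 replicate 3 (diamond) is the lowest USP48-labelled array for TRIM22, TRIM21, TRIM5, TRIM38, TRIM69 and TRIM35, and the groups overlap for TRIM25 only.

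USP48 replicate 3 was the lowest USP48-labelled array in 10 of the 12 TRIM genes that rose and the highest in 5 of the 9 that fell. It is also the array with the GAPDH difference of −1.31 given above. How often replicate 3 takes these places over all genes was not counted, and its part in these values was not tested. Without it 13 TRIM genes were called higher and 8 lower. Of the 21 calls 19 were kept, TRIM14 and TRIM29 lost theirs, and TRIM11 and TRIM27 gained one.

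Promoter windows were searched for the core of the interferon-stimulated response element, spelled GAAA, any 2 bases and GAAA again, on both strands. On the other strand it reads TTTC, any 2 bases and TTTC. Windows run from 250 bases before to 50 bases after each start site listed by RefSeq (GRCh38.p14). Of 43 TRIM genes with a window, 8 held the element (18.6%), against 4.38% of the 27305 genes in the table. It was found for 5 of 8 genes that rose, 1 of 7 that fell and 2 of 28 that did not pass, the latter being TRIM2 and TRIM16. TRIM22, TRIM35, TRIM8 and TRIM13, which also rose, and TRIM28 and TRIM29, which fell, were not searched. The stretches below show the 5 rising genes with the element, and TRIM44, which fell, for contrast. They were chosen after the matches were seen. Each reads 5′ to 3′ along the gene's strand, and capitals mark the element.
TRIM21: ctgagcgGAAACTGAAAGTGAAAtagggag
TRIM5: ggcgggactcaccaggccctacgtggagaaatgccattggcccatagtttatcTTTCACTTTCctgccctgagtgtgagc
TRIM14: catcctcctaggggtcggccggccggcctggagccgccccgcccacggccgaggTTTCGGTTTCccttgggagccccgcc
TRIM69: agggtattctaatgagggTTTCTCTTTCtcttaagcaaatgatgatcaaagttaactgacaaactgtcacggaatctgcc
TRIM26: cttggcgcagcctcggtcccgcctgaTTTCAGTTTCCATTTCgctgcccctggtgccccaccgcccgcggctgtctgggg
TRIM44: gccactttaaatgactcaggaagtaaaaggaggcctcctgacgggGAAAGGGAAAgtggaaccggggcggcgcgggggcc

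The TRIM21 stretch is chr11:4393663-4393692 on the minus strand, just after the start site, and holds 2 overlapping copies beginning at transcribed bases 18 and 24. In TRIM5 (chr11:5685075-5685154, minus strand) and TRIM14 (chr9:98119223-98119302, minus strand) the element begins 27 and 26 bases before the start site. In TRIM69 (chr15:44736448-44736527, plus strand) it begins 62 bases before. TRIM26 (chr6:30213547-30213626, minus strand) holds 2 overlapping copies that begin 194 and 188 bases before the start site. In TRIM44 (chr11:35662695-35662774, plus strand) the element begins 35 bases before. TRIM38 and TRIM25 had windows without this spelling. The core of the gamma-activated site, spelled TTC, any 3 bases and GAA, was found for 7 of the 43 TRIM genes (16.3%), namely 0 of 8 that rose, 1 of 7 that fell and 6 of 28 that did not pass, beside 9.38% of all genes in the table. Nothing is read from these small counts. A match is a description of the letters in the window, not a binding site.

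Of the 49 TRIM genes outside the interferon list, 7 rose. TRIM69, a SPRY-class ligase that associates with microtubules and restricts some RNA viruses, was at 6.43, 6.42 and 6.36 in controls and 8.18, 8.14 and 7.92 in the USP48-labelled arrays. These groups were tight and far apart, with a log2 difference of 1.67 (3.19-fold, SE 0.09, limma adjusted p = 1.0e-06), second to TRIM22 in size. Its other probe sets were at 0.55 and 0.49, and the mean of all 3 gave 0.91.

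TRIM35, a SPRY-class ligase implicated in control of pyruvate kinase M2, was at 5.45, 5.46 and 5.50 in controls and 6.37, 6.47 and 6.26 in the USP48-labelled arrays. The groups did not overlap, and the log2 difference was 0.90 (1.86-fold, SE 0.09, limma adjusted p = 3.1e-05). TRIM8, which promotes signalling from tumour necrosis factor to NF-κB, was at 7.82, 7.99 and 7.78 and rose to 8.55, 8.65 and 8.67. Here replicate 3 was the highest USP48-labelled array. Its log2 difference was 0.76 (1.69-fold, SE 0.09, limma adjusted p = 0.00013), with other probe sets between −0.07 and 0.53 and a mean over all 5 of 0.28 (adjusted p = 0.013).

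TRIM56, TRIM26, TRIM68 and TRIM13 rose by less than 1.5-fold. TRIM56, an antiviral ligase that also modifies the DNA sensing pathway, was at 6.57, 6.67 and 6.65 and rose to 7.13, 7.11 and 6.96, a log2 difference of 0.44 (limma adjusted p = 0.0030). TRIM26, encoded in the major histocompatibility region, was at 7.68, 7.83 and 7.70 and rose to 8.07, 8.39 and 8.03, a difference of 0.43 (adjusted p = 0.012). TRIM68, a cofactor of the androgen receptor, was at 6.85, 7.08 and 7.04 and rose to 7.40, 7.53 and 7.31, a difference of 0.42 (adjusted p = 0.0079). The USP48-labelled arrays lay above the controls in each of these genes. None of these calls held on the control-scaled values, where the differences were 0.15, 0.13 and 0.13 (adjusted p = 0.32, 0.41 and 0.42).

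TRIM13, a ligase anchored in the endoplasmic reticulum, changed direction with the probe set. Its brightest probe set rose from 6.28, 6.25 and 6.10 to 6.72, 6.91 and 6.48, a log2 difference of 0.49 (limma adjusted p = 0.0081). The other probe sets fell, by 0.92, 1.20 and 1.0 on the log2 scale (adjusted p = 0.00075, 0.00025 and 3.1e-05 over all probe sets). For 229943_at the values were 5.82, 5.48 and 5.63 in controls and 4.49, 4.67 and 5.02 in the USP48-labelled arrays, without overlap. With the mean of all 4 the gene was called lower at −0.66 (adjusted p = 0.00042), and on the control-scaled values the rise did not pass (0.20, adjusted p = 0.26).

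The 9 TRIM genes that fell were TRIM6, TRIM37, TRIM52, TRIM44, TRIM66, TRIM28, TRIM59, TRIM7 and TRIM29, none of them on the interferon list. TRIM6, which makes unanchored ubiquitin chains that activate the kinase IKKε, was at 5.49, 5.75 and 5.41 in controls and 4.70, 4.74 and 4.61 in the USP48-labelled arrays. The arrays of the lower group were close together and well below the controls. The log2 difference of −0.87 (1.83-fold lower, SE 0.10, limma adjusted p = 0.00012) was the lowest of the family.

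TRIM37, mutated in mulibrey nanism and a regulator of centrosome proteins, was at 8.21, 8.11 and 8.15 and fell to 7.34, 7.34 and 7.59. Both of its probe sets were called, at −0.74 and −0.90 (1.67-fold lower for the brightest, limma adjusted p = 0.00020). TRIM52, a short member that ends after its zinc fingers, fell from 5.41, 5.26 and 5.62 to 4.58, 4.80 and 4.84. The groups did not overlap in either of its probe sets, which were at −0.69 and −0.58 (adjusted p = 0.00094 for the brightest).

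TRIM44, which carries a ubiquitin-protease-type zinc finger in place of a RING, fell from 7.39, 7.34 and 7.41 to 6.78, 6.67 and 6.72. Replicates agreed closely in both groups, and the log2 difference was −0.66 (1.58-fold lower, SE 0.08, limma adjusted p = 0.00015). A second probe set was at −1.06 and the third at −0.01. TRIM66, a chromatin-binding relative of TRIM28 without a RING, fell from 4.81, 4.85 and 4.89 to 4.28, 4.56 and 4.31. Its difference of −0.47 (adjusted p = 0.0040) rested on its brightest probe set, since the others were at −0.04 and −0.00 and their mean with it at −0.17 (adjusted p = 0.13).

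TRIM28, the co-repressor that zinc finger proteins recruit to silence retroelements, was at 9.16, 9.04 and 8.91 and fell to 8.59, 8.59 and 8.68. The groups did not overlap, and its single probe set gave a log2 difference of −0.42 (1.33-fold lower, SE 0.09, limma adjusted p = 0.0057). TRIM66, described above, carries a PHD finger and a bromodomain too. Of the remaining members of that kind, TRIM24 and TRIM33 did not pass by their brightest probe sets, at −0.08 (95% interval −0.26 to 0.10) and −0.18 (−0.35 to −0.01). Of the 4 probe sets of TRIM33, a ligase of the SMAD pathway, 2 others were called lower at −1.09 and −0.50.

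TRIM59, TRIM7 and TRIM29 fell least. TRIM59, a membrane-anchored member, fell from 5.16, 5.18 and 5.29 to 4.65, 4.75 and 5.02, a log2 difference of −0.40 (limma adjusted p = 0.015). It did not pass without empty vector replicate 3 or USP48 replicate 1 (adjusted p = 0.059 and 0.061). TRIM7, a ligase that binds glycogenin, fell from 8.28, 8.32 and 8.18 to 7.82, 7.86 and 7.91, a difference of −0.40 (adjusted p = 0.0043). Averaged over its 3 probe sets TRIM7 was at −0.22 and did not pass (adjusted p = 0.11). TRIM29, a RING-less member linked to the DNA damage response, fell from 10.15, 10.25 and 10.07 to 9.77, 10.00 and 9.65, a difference of −0.35 (adjusted p = 0.028). This call was lost when its 3 probe sets were averaged (−0.06, adjusted p = 0.66) and when empty vector replicate 1 or 2, or USP48 replicate 1 or 3, was left out (adjusted p between 0.073 and 0.108).

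**Figure D3:**
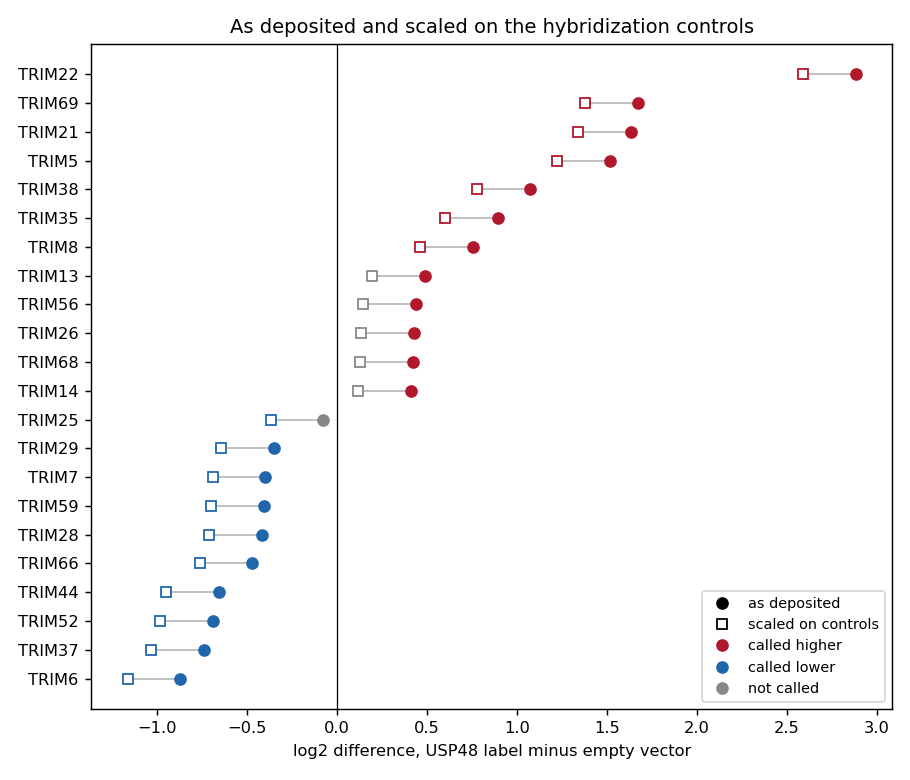
Log2 difference (x axis) of the 21 called TRIM genes and TRIM25, as deposited (filled circles) and control-scaled (open squares), coloured by the call under each. All 9 falls and 7 of the 12 rises were called under both, while TRIM13, TRIM56, TRIM26, TRIM68 and TRIM14 lost their calls.

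The remaining 34 TRIM genes had log2 differences between −0.27 and 0.30. In 23 of them the groups overlapped, and in 11 they did not, 6 higher and 5 lower with the USP48 label. Over the whole family groups did not overlap for 18 genes higher and 14 lower, against 23.8% and 19.1% of all genes. Just outside the threshold were TRIM32, a ligase mutated in a limb-girdle muscular dystrophy, at −0.27 (limma adjusted p = 0.0503) and TRIM11 at 0.27 (adjusted p = 0.053). The second probe set of TRIM32 was called lower at −0.41 (adjusted p = 0.023 over all probe sets). TRIM11 was at 6.83, 6.92 and 6.85 in controls and 7.06, 7.29 and 7.05 in the USP48-labelled arrays, and its second probe set was called at 0.69.

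Of the 55 genes, 12 lay below the median of every array in both groups. They were TRIM9, TRIM31, TRIM40, TRIM42, TRIM50, TRIM51, TRIM54, TRIM55, TRIM58, TRIM63, TRIM71 and TRIM72, among them the muscle-type ligases TRIM54, TRIM55 and TRIM63 and the stem cell factor TRIM71. By limma 0 of the 12 were called, and 0 had an unadjusted p under 0.05, with differences from −0.12 to 0.13, while 8.25% of all genes this dim were called. No statement about expression in these cells is made for them, since detection against background was not analysed. Of the 43 others, above that level in at least 1 group, 12 rose and 9 fell. That is 48.8%, against 40.0% of all genes above it in at least 1 group. TRIM22 is among the 43 only through its USP48-labelled mean of 5.67, so its place there is tied to its rise.

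By domain class, with members that lack a RING finger kept as a class of their own whatever their C-terminal end, the 25 SPRY members measured held 8 of the 12 rises (TRIM5, TRIM21, TRIM22, TRIM26, TRIM35, TRIM38, TRIM68 and TRIM69) and 2 of the 9 falls (TRIM6 and TRIM7). That is 32% higher and 8% lower, beside 15.7% and 14.1% of all genes. Without the interferon list 4 of 20 SPRY members rose (20%) and 2 fell (10%), with a median of 0.03, nearer the shares of all genes. Most of the class did not pass the test. The class without a RING finger takes in TRIM14 and TRIM16, which end in a SPRY domain, and TRIM66, which ends in a PHD finger and bromodomain. Of its 5 members 1 rose and 3 fell (median −0.35), beside 15.7% and 14.1% of all genes. With the mean of all probe sets 0 rose and 1 fell (median −0.06). The 4 NHL members TRIM2, TRIM3, TRIM32 and TRIM71 and the 4 members with COS, fibronectin and SPRY domains did not pass by their brightest probe sets. Among their other probe sets, 1 each was called for TRIM2 (0.36), TRIM32 (−0.41) and TRIM36 (0.47). On the control-scaled values 6 SPRY members were higher and 10 lower (median −0.21), a shift that the scaling makes by construction in every class.

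**Figure D4:**
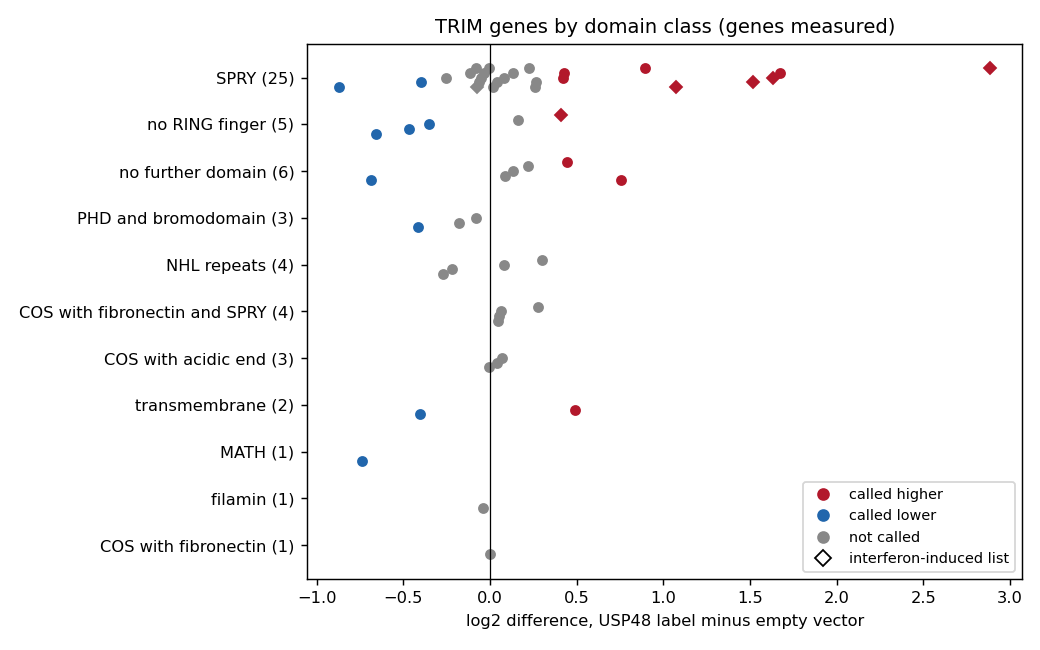
Log2 difference (x axis) of each TRIM gene by domain class (rows, with the number of genes measured; members without a RING finger form 1 row whatever their C-terminal end), coloured by call, with diamonds for the interferon-induced list and vertical offsets only to separate points. Differences above 1 appear in the SPRY row alone, which holds 25 of the 55 genes and also the lowest value, TRIM6 at −0.87.

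Neighbouring TRIM genes did not all move in the same direction. On chromosome 11 the RefSeq order is TRIM21, TRIM68, TRIM5, TRIM6, TRIM34, TRIM22 and TRIM3, and TRIM6 lies within the annotated span of TRIM5. TRIM5 rose by 1.52 and TRIM22 by 2.88 on the log2 scale, while TRIM6 between them fell by 0.87, and TRIM3, at −0.22, did not pass. In the group on chromosome 6, TRIM26 rose by 0.43, and TRIM31, TRIM40, TRIM10 and TRIM15 did not pass, at 0.09, 0.13, −0.05 and 0.23.

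Probe sets of the same TRIM gene agreed only in part. Of 13 called TRIM genes with several probe sets, 8 had another probe set called in the same direction. Of all 36 TRIM genes with several probe sets, whether called or not, 3 had all of them called in 1 direction. Another 2, TRIM13 and TRIM56, had probe sets called in both. How often probe sets agree over all genes was not counted. The second TRIM56 probe set fell from 5.93, 5.96 and 6.07 to 5.43, 5.69 and 5.72 (log2 difference −0.37, limma adjusted p = 0.024 over all probe sets), and the mean of both was at 0.03 (adjusted p = 0.77). Of the 34 genes not called, 9 had another probe set that was called, 5 higher and 4 lower. TRIM27, a ligase of the WASH endosomal pathway, was at 0.26 by its brightest probe set and fell by 0.82 by 212118_at (adjusted p = 0.00016). TRIM45 was at −0.04 and fell by 0.80 by its second probe set (adjusted p = 0.00010). Of all 128 TRIM probe sets 23 were called higher and 21 lower, and of all probe sets 24.3% were called.

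**Figure D5:**
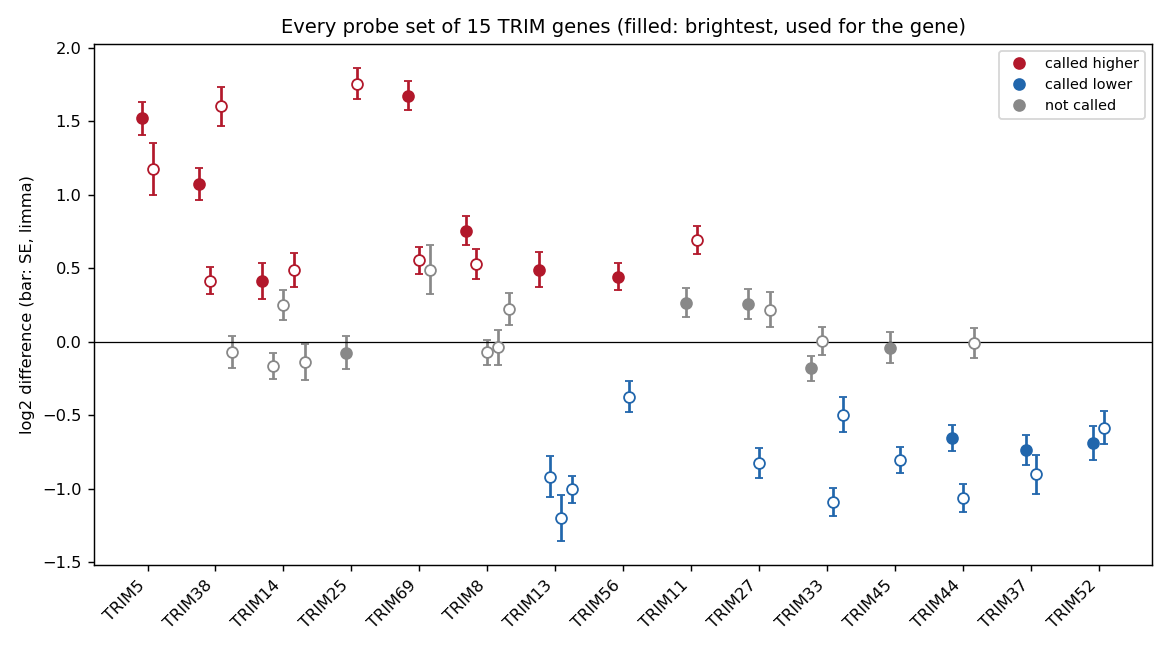
Log2 difference (y axis, bars for the limma SE) of every probe set of 15 TRIM genes, with filled points for the brightest probe set, which stands for the gene, and colour for the call over all probe sets. The probe sets of TRIM5, TRIM37 and TRIM52 move together, those of TRIM13 and TRIM56 are called in both directions, and TRIM25 has one at −0.07 and one at 1.76.

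TRIM proteins named by other symbols included PML, which builds nuclear bodies and is itself interferon-induced. PML rose from 5.80, 5.83 and 5.96 to 6.93, 7.10 and 6.82, a log2 difference of 1.09 (2.12-fold, SE 0.10, limma adjusted p = 1.8e-05). The microtubule-binding ligases MID2 and MID1 were at 0.52 and −0.81 (adjusted p = 0.0019 and 0.0033). Neither passed with the mean of its probe sets, and MID2 had a second probe set called lower at −0.42. Of the 9 relatives measured 2 rose and 1 fell (15.7% and 14.1% of all genes), and on the control-scaled values 1 rose and 2 fell.

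Among the enzymes and pathways that TRIM ligases work with, 8 of 13 listed E2 enzymes were measured, of which 4 rose and 2 fell, beside 15.7% and 14.1% of all genes. UBE2L6, the E2 enzyme of ISG15 conjugation, rose from 7.36, 7.48 and 7.16 to 9.69, 9.87 and 8.90 (log2 difference 2.16, 4.45-fold, SE 0.21, limma adjusted p = 3.0e-05). UBE2D4 was at −0.50, UBE2E3 at −0.44 and UBE2K at 0.38, but UBE2K was called lower with the mean of its probe sets. With the mean of all probe sets 2 E2 enzymes rose and 3 fell (median −0.02, against 0.18 by the brightest). On the control-scaled values 1 E2 enzyme rose and 3 fell.

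Of 19 signalling partners and substrates of TRIM ligases 9 rose and 4 fell (median 0.28), beside 15.7% of all genes higher and 14.1% lower. RIGI, the substrate of TRIM25, was at 4.40 and the transcription factor IRF7 at 2.49, while TRAF3 was at −1.06 and MAVS, the partner of TRIM14, at −0.93 (limma adjusted p = 0.00035 and 7.8e-05 for the falls). MAVS fell from 7.13, 7.17 and 6.87 to 6.14, 6.02 and 6.23. The sensors RIGI and IFIH1 (1.99) rose, so they and the adaptor they signal through moved in opposite directions. The other probe sets of RIGI were at 3.38 and −0.04, and TRAF3 had a second probe set at 0.23. On the control-scaled values 4 of the 19 were higher and 7 lower.

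Of 9 nuclear partners of TRIM28, 0 rose and 4 fell (median −0.27), beside 15.7% of all genes higher and 14.1% lower. The deacetylase HDAC1 was at −0.58, the remodelling ATPases CHD4 and CHD3 at −0.52 and −0.50, and ATF7IP, a cofactor of SETDB1, at −0.32 (limma adjusted p = 0.00047, 0.0019, 0.0043 and 0.021). The methyltransferase SETDB1, HDAC2 (−0.27, limma adjusted p = 0.054) and the heterochromatin proteins CBX1, CBX3 (0.27) and CBX5 did not pass by their brightest probe sets. With the mean of all probe sets 0 partners rose and 6 fell, CBX3 and CBX5 among the 6. Without any 1 of empty vector replicates 2 and 3 and USP48 replicates 1 and 2, 3 were called lower, and on the control-scaled values 8 were.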

How the data were processed

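The deposited values are log2 probe set summaries of 6 Affymetrix arrays, and the submitters' processing notes name RMA, whose version is not given in the sources used here. RMA makes the arrays' distributions alike and therefore hides any change in total RNA. Of 54675 probe sets, 62 were controls and 41091 named 1 gene in the platform annotation, of which 41037 matched RefSeq (GRCh38.p14, used for names and gene order), and 0 symbols changed. For 7 TRIM symbols every probe set names several genes, and these are not analysed here.

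The test was limma 3.58.1 under R 4.3.3 (two-sided, lmFit and eBayes, Benjamini-Hochberg) over 19775 genes, or over 54613 probe sets where stated. No filter was applied. On simulated data for this comparison (19775 genes, 200 changed) it recovered 96% of changes of 1 and 46% of changes of 0.5 on the log2 scale. In the data 5897 genes were called, far more than the 200 simulated, and the Benjamini-Hochberg limit depends on that number. These recoveries therefore do not give the sensitivity of the test in the data. The members, lists and motifs were chosen with earlier results of these data known. Named are the interferon list, then the 8 highest and 8 lowest other called members, then all remaining called members. Alternatives were other normalizations, priors, filters, probe set rules, thresholds and lists, and each array left out. Precision is limited by 3 arrays per group. Figures used matplotlib 3.10.9 in Python 3.11.15.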

Additional observations from a re-analysis of the deposited data

How the results depend on the processing

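Of 286 values of 22 TRIM genes under 13 alternatives, 263 kept their direction and their side of the threshold, 19 lost and 1 gained a call, and 3 changed sign, namely TRIM25 (0.84 averaged over its probe sets, and from −0.17 to 0.011 with each array left out) and TRIM13 (−0.66 averaged over its probe sets). Of 21 called genes 12 kept their call under all 13. Scaling on the hybridization controls gave 7 TRIM genes higher and 22 lower, 3 and 21 of them outside the interferon list, with medians of 1.0 for the interferon list and −0.25 for the others. That follows from its construction, a shift of every difference by 0.29. Averaging a gene's probe sets gave an interferon median of 1.09. A limit of 1.5-fold left 7 higher and 4 lower, of which 3 and 4 were outside the interferon list. Asking that every probe set of a gene be called in 1 direction left 6 higher and 5 lower, 3 of the 6 on the interferon list and 3 off it, and all 5 of the lower off it. A called gene with 1 probe set meets this rule without a second reading. Only 3 genes with several probe sets met it, TRIM5, TRIM37 and TRIM52. With TRIM26, TRIM56 and TRIM69 added to the interferon list, 8 of its 9 members were higher (median 1.07), and 4 of the others were higher (median 0.0066). The added genes were all called higher already and were chosen with earlier results known, so these counts follow from the choice.

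With each array left out, 11 to 13 TRIM genes were higher and 7 to 10 lower, 4 to 5 of the interferon list were higher, and 7 to 9 of the others higher and 7 to 10 lower. The medians ran from 1.23 to 1.39 for the interferon list and from −0.019 to 0.045 for the others. The replicate number as a block gave 15 higher and 10 lower, and the 21 called genes were all among these. Same-numbered arrays shared deviations weakly (correlations of 0.0042, 0.17 and 0.015), and not every array correlated best with its own number, so the numbers were not treated as pairs.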
